A study of Homo sapiens with 6 samples.

Results

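Heat shock proteins are chaperones, and 10 genes that encode them were followed in HEK293T cells, a human embryonic kidney line, before and after a short exposure to light. The genes were HSPA1A, HSPA1B, HSPA8, HSPA4, HSPH1, HSP90AA1, HSP90AB1, HSPB1, HSPD1 and HSPE1. They were taken by symbol from the Ensembl gene rows of the deposited count table and are 10 of its 60179 gene rows. All 10 passed the filter on low counts and were among the 17449 features tested.

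All cells had been co-transfected with the plasmids pShP2419 and pStH1169 and kept for 48 h with 4,5-dimethoxy-2-nitrobenzyl-L-serine at 0.1 mM, a serine whose side chain is blocked by a group that light removes. The series names activation of hTET2, the human form of an enzyme that oxidises 5-methylcytosine in DNA, as the event under study. The caged group (2 libraries) received no light and is the 0 h point. The uncaged groups were washed, placed on a 365 nm light source for 3 min and returned to growth medium for 4 h (2 libraries) or 8 h (2 libraries). In each sample 500000 transfected cells were sorted before polyadenylated RNA was sequenced. No group here combined light with cells that lacked the caged enzyme, so effects of light, washing, fresh medium, time and the enzyme cannot be told apart.

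Chaperones of the HSP70 family bind short greasy stretches of unfolded proteins and release them in a cycle driven by ATP. Co-chaperones of the DNAJ family start that cycle, and exchange factors, among them the HSP110 proteins, end it by freeing ADP. HSP90 proteins act later, on kinases and receptors that are nearly folded, small heat shock proteins hold unfolded chains without ATP, and HSP60 with its lid HSP10 folds proteins inside mitochondria. Under proteotoxic stress the transcription factor HSF1 is freed from chaperones, forms trimers and binds heat shock elements, arrays of the letters GAA and TTC, in the promoters of many of these genes. The inducible genes HSPA1A and HSPA1B are known for their steep response to heat, while HSPA8 and HSP90AB1 are known as forms that unstressed cells make all the time.

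The libraries held 17490010 to 20025955 estimated counts, of which 14903812 to 17670499 fell on gene rows. Plasmid rows took 11.5% to 11.8% of the caged libraries and 14.8% to 15.5% of the libraries after light. These plasmid shares moved with the light groups in every comparison with caged cells below, and their part in those results was not tested. NEFL, NEFM, INA, PAX2, VIM, L1CAM and CDH2, genes listed as typical of the line, were tested, with VIM at group means of 464 to 504 CPM, a count scaled by the size of the library. CD3E, CDH5, KRT5 and INS, markers of other cells, were at 0 in all 6 libraries. The labels do not say whether the libraries of a group came from separate cultures. The p-values therefore measure only how far these libraries lie apart, and that spread may be technical.

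The promoter sequences show what the members share upstream and where they differ. In the RefSeq promoter windows (GRCh38.p14, 250 bases before to 50 after each start), heat shock elements were searched as runs of GAA and TTC in turn with starts 5 bases apart. A run of 2 units reads GAANNTTC or TTCNNGAA, and each of these is its own reverse complement, so both strands are covered. Among all 35116 promoter windows, 13.5% held a run of at least 2 units, 0.49% a run of at least 3 and 0.0342% a run of at least 4. The 10 genes have 14 windows; 7 of them held at least 2 units, 4 held at least 3, and 1 held 4. Each match is a description of letters, not a tested binding site. The following 30-base windows show each run found in the members, 1 run in capitals per line, on the strand of the gene, 5′ to 3′:
HSPA1A (chr6:31815426-31815455, plus strand): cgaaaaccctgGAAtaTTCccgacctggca
HSPA1B (chr6:31827622-31827651, plus strand): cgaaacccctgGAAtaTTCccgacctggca
HSPB1 (chr7:76302480-76302509, plus strand): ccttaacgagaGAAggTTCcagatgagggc
HSPA8 (chr11:123062345-123062374, minus strand): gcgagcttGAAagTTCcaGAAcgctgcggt
HSPA8 (chr11:123062170-123062199, minus strand): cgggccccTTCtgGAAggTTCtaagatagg
HSP90AA1 (chr14:102087111-102087140, minus strand): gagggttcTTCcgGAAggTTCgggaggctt
HSP90AA1 (chr14:102087094-102087123, minus strand): gttcgggaggcTTCtgGAAaaagcgccgcg
HSP90AB1 (chr6:44247770-44247799, plus strand): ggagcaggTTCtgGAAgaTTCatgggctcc
HSP90AB1 (chr6:44247823-44247852, plus strand): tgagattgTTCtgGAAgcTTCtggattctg
HSPD1 (chr2:197500061-197500090, minus strand): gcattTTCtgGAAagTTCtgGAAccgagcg

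The windows of HSPA8, HSP90AA1, HSP90AB1 and HSPD1 belong to start sites inside the annotated span of the gene. The run shown for HSPD1 also lies within the span of HSPE1 on the opposite strand, and its promoter window overlaps that span in part. None of these runs was found in the windows of HSPA4, HSPH1 and HSPE1, which says only that these letters are not in those windows.

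HSPA1A and HSPA1B are near copies, and their promoters show it. HSPA1A lies at chr6:31815464-31817946 and HSPA1B at chr6:31827735-31830255, both on the plus strand and both protein coding (GENCODE 29, GRCh38). Over the 250 bases before the RefSeq starts the sequences were 94.4% identical, and the transcripts were 96.1% identical. The stretches from the window start to the base before the annotated transcript start are given here because reads of the pair can fit both copies. Capitals mark the 2-unit run:
HSPA1A (chr6:31815293-31815463): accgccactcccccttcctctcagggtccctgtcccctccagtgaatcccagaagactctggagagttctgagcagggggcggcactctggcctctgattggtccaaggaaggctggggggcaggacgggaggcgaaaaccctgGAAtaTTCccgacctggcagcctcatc
HSPA1B (chr6:31827488-31827734): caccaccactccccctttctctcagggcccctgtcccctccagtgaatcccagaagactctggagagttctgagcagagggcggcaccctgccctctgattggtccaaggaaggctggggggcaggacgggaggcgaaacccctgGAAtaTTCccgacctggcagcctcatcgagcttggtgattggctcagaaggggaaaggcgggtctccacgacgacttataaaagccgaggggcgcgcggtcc
The letters TATAAA, on either strand, were in the windows of HSPA1A and HSPA1B and in no other member's window; 11.5% of all windows hold them.

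The near identity also limits what the counts can say about each copy. Of the 31-base words of the HSPA1A transcript, 74.3% also occur in HSPA1B. Reads of either gene can therefore fit both, and Salmon divides such reads by estimation. The share of such reads was not measured. HSPA1A took only 1.06% to 1.47% of the summed counts of the pair (95% Wilson intervals from 0.878% to 1.74%, counting error only). The sum of the 2 rows does not depend on how reads were divided between them, and it is given beside the single rows. Other rows can still take reads of the pair. AL671762.1, annotated as a processed transcript that starts inside HSPA1B, shares 35.8% of the 31-base words of HSPA1B and was singled out after its counts were seen. The other members shared between 0.329% (HSPH1) and 46.5% (HSPD1) of their words with other genes. Pseudogene and readthrough rows named after a member and above 1 CPM were HSPE1-MOB4 with 13.4 CPM, HSP90AA6P with 5.65 CPM, HSP90AB2P with 2.66 CPM, HSPD1P4 with 2.30 CPM and HSP90AB3P with 1.12 CPM.

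Together the 10 genes took between 0.480% and 0.604% of all gene counts in a library. The caged libraries held 0.574% and 0.604%, the 4 h libraries 0.497% and 0.480%, and the 8 h libraries 0.505% and 0.548%. On these shares, which carry no TMM scaling, the caged libraries were the highest and the 4 h libraries the lowest, with no overlap between groups. On the TMM-scaled CPM used below, the 10 genes summed to 5535 and 5849 in caged cells, 4981 and 4795 at 4 h, and 5232 and 5719 at 8 h. There the caged and 8 h groups overlapped and the 4 h group was still the lowest. Counts per gene and library ran from 109 for HSPA1A to 24052, and apart from HSPA1A the lowest was 1221.

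Levels were compared between genes as CPM per kilobase of 1 GENCODE transcript. In caged cells HSPA8, the constitutive cytosolic HSP70, was the highest of the 10 with a mean of 484 CPM per kb. HSP90AB1, the constitutive HSP90, followed with 429.6, then the HSPA1A and HSPA1B sum with 377 and HSP90AA1, the inducible HSP90, with 341. HSPD1, the mitochondrial HSP60, was at 248, HSPB1, the small heat shock protein HSP27, at 169.9, and HSPE1, the mitochondrial HSP10, at 115. The exchange factors were the lowest apart from the HSPA1A row, with HSPA4 at 39.5 and HSPH1 at 28.9 CPM per kb. Neighbours in this order were separated in both caged libraries except for the HSPA1 sum, at 342 and 411 CPM per kb, and HSP90AA1, at 302 and 379.9, which overlapped.

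After light the order of levels changed in the middle. At 4 h the HSPA1 sum had a mean of 230.2 CPM per kb and overlapped with HSPD1 at 231, below HSP90AA1 at 266. At 8 h the HSPA1 sum was at 291 and lay within the range of HSP90AA1, whose libraries were at 251 and 359. HSPB1, above HSPE1 in all caged and 4 h libraries, overlapped with it at 8 h: its libraries were at 108 and 94.0 CPM per kb, and both HSPE1 libraries, at 105 and 107, lay between them. HSPA8 stayed the highest gene in both groups, with means of 476 and 532. The HSP90AA1 values per kb use its long transcript, so they would be higher for a shorter form.

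**Figure D1:**
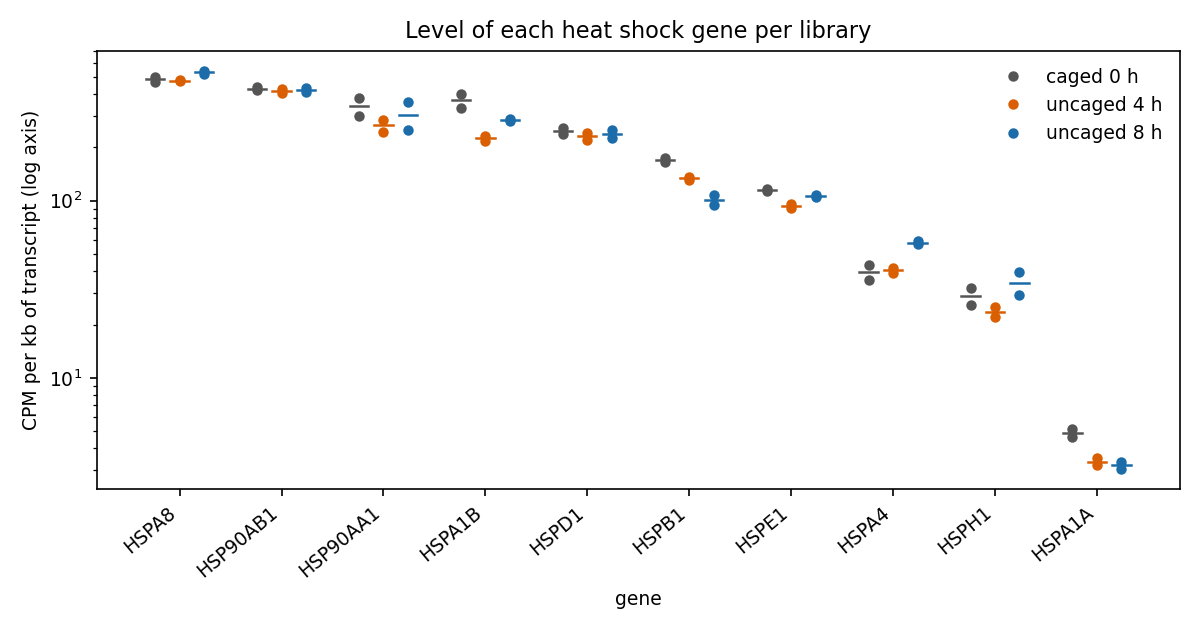
Level of each heat shock gene in each of the 6 libraries as CPM per kilobase of transcript on a log axis. Points are libraries and short lines are group means (2 libraries per group); the HSPA1B points of the caged libraries lie above those at 8 h, and those at 8 h above those at 4 h.

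The pair of inducible HSP70 genes was lower after light. HSPA1B was at 1016 and 845 CPM in the caged libraries, 550.2 and 585 CPM at 4 h, and 727 and 713 CPM at 8 h. The 3 groups did not overlap, and the caged libraries differed most among themselves. At 4 h HSPA1B fell by 39.0%, a log2 fold change of -0.71 ± 0.079 (SE), with an adjusted p of 0.00284 (edgeR quasi-likelihood test, Benjamini-Hochberg over all 17449 features). At 8 h it was lower than in caged cells with a log2 fold change of -0.37 ± 0.078 and an adjusted p of 0.0107 by the same test. In bulk RNA a lower level in all cells and a loss from some of the cells cannot be told apart.

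HSPA1A, at a far lower estimated level, also fell at both times. Its libraries were at 12.8 and 11.5 CPM when caged, 7.96 and 8.75 CPM at 4 h, and 8.30 and 7.63 CPM at 8 h. Both light groups lay below the caged group and overlapped with each other. The log2 fold changes were -0.54 ± 0.13 at 4 h (edgeR adjusted p 0.0338) and -0.61 ± 0.13 at 8 h (edgeR adjusted p 0.01). The 4 h call was lost when any of the 4 compared libraries was left out, with adjusted p from 0.0921 to 0.161. It was also lost with DESeq2 (0.135), with cyclic loess (0.0726), with features of low count kept (0.0717) and with the replicate block (0.0595). The 8 h call was lost without caged replicate 1 (-0.54, adjusted p 0.0675) and held in the other settings run.

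The sum of the pair behaved as HSPA1B did, since HSPA1B holds nearly all of it. It was at 1029 and 856 CPM in caged cells, 558 and 594 CPM at 4 h, and 736 and 721 CPM at 8 h, with no overlap between groups. The log2 fold change was -0.71 ± 0.078 at 4 h (edgeR adjusted p 0.00284) and -0.37 ± 0.078 at 8 h (0.0102). The difference between 4 h and 8 h, 0.34 ± 0.078 on the log2 scale, had an adjusted p of 0.0569 in edgeR and did not pass the threshold of 0.05. The 8 h value moved to -0.24 without caged replicate 1 and to -0.66 with cyclic loess scaling, and it passed the threshold in both.

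AL671762.1, the overlapping row, was at 133 and 128 CPM in caged cells, 80.3 and 89.2 CPM at 4 h, and 97.9 and 89.4 CPM at 8 h. It was also lower at both times, by -0.62 ± 0.073 at 4 h (edgeR adjusted p 0.00366) and -0.48 ± 0.073 at 8 h (0.0031) on the log2 scale. With this row added to the pair the sum of all 3 changed by -0.70 ± 0.074 at 4 h (edgeR adjusted p 0.00236) and by -0.38 ± 0.073 at 8 h (0.00696), as log2 fold changes.

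HSPA8, the constitutive counterpart that folds clients in unstressed cells, was near its caged level at 4 h. It was at 1159 and 1225 CPM in caged cells, 1177 and 1169.7 CPM at 4 h, and 1336 and 1285 CPM at 8 h. The 4 h libraries lay within the caged range, and the 8 h libraries lay above both other groups. The 4 h log2 fold change was -0.022 ± 0.041, with a 95% interval of -0.12 to 0.072 and an edgeR adjusted p of 0.774, whereas with cyclic loess offsets it was -0.21 and passed (adjusted p 0.0198). At 8 h HSPA8 rose by 9.96% (log2 0.14 ± 0.041, edgeR adjusted p 0.0387), but the sign of this value depended on the scaling: with cyclic loess it was -0.19, with an adjusted p of 0.0115. The call also ended when any library other than caged replicate 2 was left out, with values from 0.095 to 0.16. It was likewise lost with library totals (0.033), upper-quartile factors, the 4 compared libraries alone, the replicate block and no filter on low counts.

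HSPA4, an HSP110-type exchange factor for HSP70, rose between 4 h and 8 h. It was at 173 and 208 CPM in caged cells, 189 and 202 CPM at 4 h, and 274 and 287 CPM at 8 h. The 4 h libraries sat inside the caged range and the 8 h libraries stood clear of the other 4. At 8 h the level was 1.47-fold that of caged cells (log2 0.56 ± 0.084, edgeR adjusted p 0.00295), and this call held in all settings run. Between 4 h and 8 h the log2 fold change was 0.52 ± 0.084, with an edgeR adjusted p of 0.0271. That step lost its call when any library at 4 h or 8 h was left out (adjusted p 0.0561 to 0.161) and when features of low count were kept (0.0683).

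HSPH1, the other HSP110-type exchange factor, did not pass the edgeR test over the 6 libraries in any comparison, but it did in some of the other settings run. Its libraries were at 133 and 167 CPM when caged, 114 and 129.7 CPM at 4 h, and 153 and 205 CPM at 8 h. The 4 h group lay below the other groups, while the caged and 8 h groups overlapped. The log2 fold changes were -0.30 ± 0.15 at 4 h (95% interval -0.63 to 0.036), 0.25 ± 0.14 at 8 h (-0.077 to 0.59) and 0.55 ± 0.15 from 4 h to 8 h (0.22 to 0.89), with edgeR adjusted p of 0.236, 0.221 and 0.0769. Without 8 h replicate 1 the step from 4 h to 8 h was 0.75 and passed (adjusted p 0.0451). With the replicate number as a block the change at 8 h (0.25, adjusted p 0.0401) and the step from 4 h to 8 h (0.54, 0.0351) both passed; replicate 2 exceeded replicate 1 in each group, by ratios from 1.13 to 1.34.

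The HSP90 genes did not pass the edgeR test over the 6 libraries in any comparison. HSP90AA1, the inducible form, was at 1060.1 and 1334 CPM in caged cells, 1008 and 863 CPM at 4 h, and 880.2 and 1259 CPM at 8 h. Its 4 h libraries lay below both caged libraries, but the spread within the caged and 8 h groups was wide. The log2 fold change was -0.36 ± 0.16 at 4 h (95% interval -0.73 to 0.016, edgeR adjusted p 0.205) and -0.16 ± 0.16 at 8 h (-0.53 to 0.21, edgeR adjusted p 0.487).

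HSP90AB1, the constitutive form, varied little. It was at 1131 and 1167 CPM in caged cells, 1136 and 1084 CPM at 4 h, and 1103 and 1159 CPM at 8 h, and all 3 groups overlapped. The 95% interval of its log2 fold change ran from -0.15 to 0.049 at 4 h and from -0.12 to 0.076 at 8 h (edgeR adjusted p 0.51 and 0.728). With cyclic loess offsets the gene was called lower, by -0.23 at 4 h and -0.34 at 8 h (adjusted p 0.0154 and 0.00144), and at 8 h also with library totals (-0.13, adjusted p 0.048).

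A pattern of single libraries ran through several members. HSPH1, HSP90AA1, HSP90AB1 and HSPD1 were each highest in caged replicate 2 and uncaged 8 h replicate 2. These 4 genes were picked out after their values were seen. In the 8 h group, replicate 2 exceeded replicate 1 by a ratio of 1.43 for HSP90AA1, 1.34 for HSPH1, 1.11 for HSPD1 and 1.05 for HSP90AB1. HSPA1B did not follow it, with ratios of 0.832 in caged cells and 0.981 at 8 h.

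HSPB1, the small heat shock protein HSP27 that also guards the actin skeleton, fell at 4 h and again by 8 h. It was at 159 and 150.2 CPM in caged cells, 119 and 124 CPM at 4 h, and 97.8 and 85.5 CPM at 8 h, with no overlap between any groups. At 4 h it fell by 21.2% (log2 -0.34 ± 0.073, edgeR adjusted p 0.0256). At 8 h it fell by 40.7% from caged cells (log2 -0.75 ± 0.074, edgeR adjusted p 0.000613), the lowest adjusted p among the 10 genes, and this call held in all settings run. The further drop from 4 h to 8 h, -0.41 ± 0.075, also passed the edgeR test (adjusted p 0.0354). The 4 h call was lost without any of the 4 compared libraries (adjusted p 0.0821 to 0.135), and the step from 4 h to 8 h was lost without any library except 8 h replicate 1 (0.0543 to 0.166), with the replicate block (0.0554) and with features of low count kept (0.0787).

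HSPD1 and HSPE1 encode HSP60 and its lid HSP10, which fold proteins in the mitochondrial matrix, and they are transcribed in opposite directions from adjoining starts. HSPD1 lies at chr2:197486581-197516737 on the minus strand and HSPE1 at chr2:197499994-197503457 on the plus strand. Their annotated spans overlap, and the strand setting of the counting was not stated in the labels. Whether any reads from the shared stretch were counted for the wrong gene was not tested. HSPE1 was at 111 and 107 CPM in caged cells, 90.5 and 86.3 CPM at 4 h, and 99.4 and 102 CPM at 8 h. All 3 groups were separate, with the 4 h group lowest.

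At 4 h HSPE1 fell by 19.1% (log2 -0.31 ± 0.059, edgeR adjusted p 0.0182), a call that was lost without any of the 4 compared libraries (0.0698 to 0.133). At 8 h its log2 fold change was -0.12 ± 0.059, with a 95% interval of -0.25 to 0.016 and an edgeR adjusted p of 0.167; it passed with library totals (-0.22) and with cyclic loess (-0.21). HSPD1 was at 581 and 636 CPM in caged cells, 589 and 543 CPM at 4 h, and 553 and 617 CPM at 8 h, and all 3 groups overlapped. Its log2 fold changes were -0.10 ± 0.069 at 4 h and -0.057 ± 0.069 at 8 h, with edgeR adjusted p of 0.381 and 0.568. With cyclic loess HSPD1 was called lower at both times, by -0.27 and -0.33 (adjusted p 0.0455 and 0.00953). The difference between the changes of HSPD1 and HSPE1 was not tested.

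**Figure D2:**
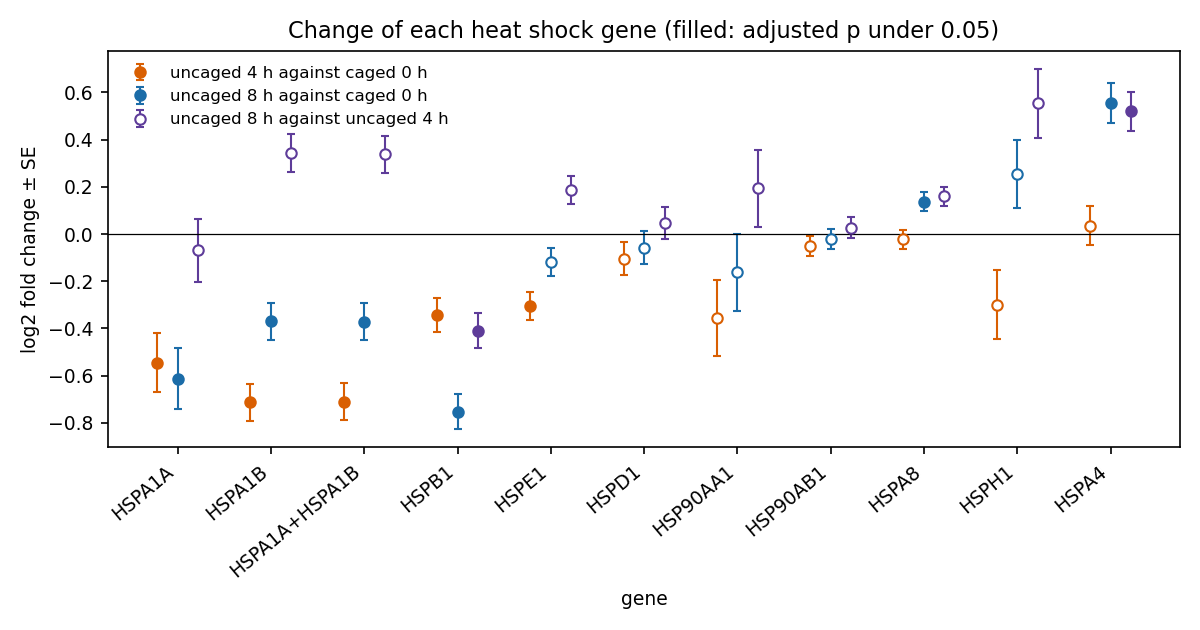
Log2 fold change of each heat shock gene in the 3 comparisons, with bars of 1 SE; filled points passed an adjusted p of 0.05. HSPA1B has its most negative value at 4 h (-0.71), HSPB1 is lower at 8 h than at 4 h, and HSPA4 is near 0 at 4 h and at 0.56 at 8 h.

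At 4 h, then, 4 of the 10 genes were called lower (HSPA1A, HSPA1B, HSPB1 and HSPE1) and 0 were called higher by edgeR. Over all tested features 3.56% were called lower and 6.16% higher in that comparison. The 10 genes were chosen with earlier results of these data known, and HSPA1A and HSPA1B share reads. Their counts are therefore not a test against those shares. The median log2 fold change was -0.30 for the 10 genes and -0.0061 over all features. DESeq2 and limma-voom also called 0 of the 10 higher at 4 h, and no member with a positive change had an unadjusted p under 0.05.

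At 8 h against caged cells, 3 genes were called lower (HSPA1A, HSPA1B and HSPB1) and 2 higher (HSPA8 and HSPA4), where 13.2% of all features were called lower and 14.9% higher. The median log2 fold change of the 10 was -0.088, against -0.0046 over all features. Scaling by library totals alone changed the split of all calls from 2602 higher and 2305 lower to 1595 higher and 3899 lower at 8 h, and moved the median over all features to -0.11. At 4 h that scaling gave 731 higher and 904 lower in place of 1074 and 622.

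Between 4 h and 8 h, HSPA4 was called higher and HSPB1 lower, where 2.05% of all features were called higher and 1.21% lower. The 4 h and 8 h comparisons use the same caged libraries, so their values are not independent of each other. HSPA1A and HSPA1B share reads and do not count as separate evidence.

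**Figure D3:**
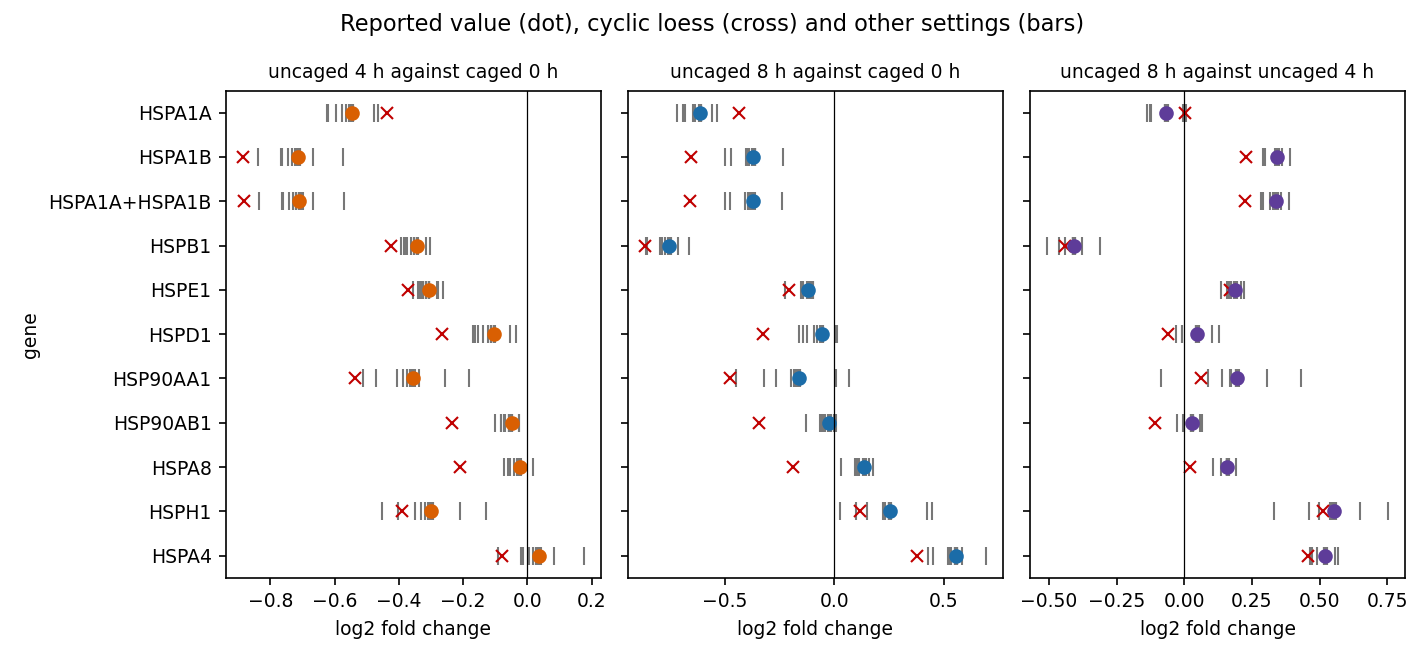
Log2 fold changes of the heat shock genes as reported (dots), with cyclic loess scaling (crosses) and under the other settings run (bars), in the 3 comparisons. Cyclic loess moves HSPA8, HSP90AB1, HSP90AA1 and HSPD1 downward in each panel, and HSPA1B, HSPB1 and, at 8 h, HSPA4 keep their sign in every setting.

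The wider chaperone network was described with 6 lists of 75 genes, of which 64 were tested. For the counts below, 6.16% of all tested features were called higher and 3.56% lower at 4 h. At 8 h these shares were 14.9% and 13.2%. The regulators of heat shock factors came first. HSF1, the main activator of the response, was at 113 and 103 CPM in caged cells, 121 and 122 CPM at 4 h, and 122 and 110.1 CPM at 8 h. Its 4 h libraries lay above the caged ones, but the log2 fold change of 0.17 ± 0.072 had an edgeR adjusted p of 0.174, and the 8 h value of 0.11 ± 0.072 had 0.301. Of the 7 tested regulators (of 8 listed), 0 passed in any comparison by edgeR, DESeq2 or limma-voom. Those with an unadjusted edgeR p under 0.05 were HSF1, IER5 and IER5L at 4 h and 0 in the other comparisons; the latter 2 genes, chosen after their values were seen, had log2 fold changes of -0.21 ± 0.076 and -0.45 ± 0.14.

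Among the other HSP70 and HSP110 genes, 10 of 11 were tested. HSPA5, the chaperone BiP of the endoplasmic reticulum, rose at both times. It was at 269.5 and 302 CPM in caged cells, 355 and 352 CPM at 4 h, and 367 and 399 CPM at 8 h, and both light groups lay above the caged group. The log2 fold changes were 0.31 ± 0.066 (edgeR adjusted p 0.0266) and 0.42 ± 0.066 (0.00332). At 8 h HSPA9, the mitochondrial HSP70 (log2 0.27 ± 0.057), HSPA14 (0.33 ± 0.080) and HSPA4L, a relative of HSPA4 (0.32 ± 0.096), rose as well, which makes 4 higher and 0 lower. HSPA4L had the call from 4 h to 8 h that HSPA4 had, with 82.0 and 79.2 CPM at 4 h and 108 and 122 CPM at 8 h (log2 0.52 ± 0.098, edgeR adjusted p 0.0371). That call was lost without any library of either group, with adjusted p up to 0.17.

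All 16 HSP70 co-chaperones and exchange factors were tested. DNAJB1, the HSP40 that works with HSPA1A, was the only one of them called lower in either comparison with caged cells. It was at 179.5 and 177 CPM in caged cells, 143 and 151 CPM at 4 h, and 140.4 and 148 CPM at 8 h, and both light groups lay below the caged group. Its log2 fold changes were -0.28 ± 0.057 at 4 h (edgeR adjusted p 0.0214) and -0.31 ± 0.057 at 8 h (0.00618). Higher at 4 h was BAG6 (log2 0.22 ± 0.055, edgeR adjusted p 0.0449), a holdase of the cytosol. At 8 h 5 were higher, with BAG1, an exchange factor, at 0.42 ± 0.061, BAG6 at 0.20 ± 0.055 and BAG3, a link between HSP70 and autophagy, at 0.20 ± 0.057 on the log2 scale.

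Of the 18 other HSP90 genes and HSP90 co-chaperones, 0 passed edgeR at 4 h, 2 had an unadjusted p under 0.05, and DESeq2 and limma-voom each called 1 higher. At 8 h 5 were called higher and 1 lower. TTC4 (log2 0.38 ± 0.071), NUDC (0.24 ± 0.045), CDC37, which brings kinases to HSP90 (0.20 ± 0.050), and AHSA1, which speeds the ATP cycle of HSP90 (0.21 ± 0.060), were the 4 of smallest p. Only HSPB8 of the 9 other small heat shock genes in the table was tested, with a log2 fold change of 0.10 ± 0.22 at 4 h and 0.14 ± 0.22 at 8 h. The remaining 8 had group means under 1 CPM.

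All 12 other mitochondrial chaperones and proteases were tested, and 3 were called higher at 4 h and 2 at 8 h. Over all tested features 6.16% were called higher at 4 h and 14.9% at 8 h. CLPB, a disaggregase of the space between the mitochondrial membranes, was at 35.1 and 33.2 CPM in caged cells, 50.6 and 45.7 CPM at 4 h, and 52.1 and 44.2 CPM at 8 h. All 4 libraries after light lay above both caged libraries (log2 0.50 ± 0.096 at both times, edgeR adjusted p 0.0182 and 0.00745). YME1L1, a protease of the inner membrane, rose by 0.22 ± 0.051 at 4 h and 0.42 ± 0.051 at 8 h, and AFG3L2, another such protease, by 0.25 ± 0.062 at 4 h, on the log2 scale.

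Over all 64 tested genes of these lists, 5 were called higher and 1 lower at 4 h, 16 higher and 2 lower at 8 h, and 1 higher and 0 lower between them. Their median log2 fold changes were 0.045 at 4 h and 0.11 at 8 h. The shares of all features called, given above for the 10 genes, apply to these lists too: 5 of 64 at 4 h stands beside 6.16%, and 16 of 64 at 8 h beside 14.9%. The 8 h calls of HSPA5, DNAJB1, BAG1, TTC4, CLPB and YME1L1 held in all settings run. The other 8 h calls named from the lists were each lost in at least 1 setting. At 4 h there were 6 list calls (HSPA5, DNAJB1, BAG6, CLPB, AFG3L2 and YME1L1). All but that of HSPA5 were lost when any of the 4 compared libraries was left out. The call of HSPA5 held in 1 of those 4 settings. With cyclic loess the 8 h values of BAG6 and CDC37 turned to -0.011 and -0.0040, and that of HSPA9 was 0.0058.

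The genes most like the HSPA1A and HSPA1B sum in their pattern over the 6 libraries were found by distance between centred log2 CPM profiles, among 13669 tested protein-coding genes outside the lists. The nearest were MARCHF9 (distance 0.129), SERPINB9 (0.179), CYBRD1 (0.20), ZBTB20 (0.207) and ZNF37A (0.211), while the profile of the sum itself had a length of 0.733. Their log2 fold changes lay between -0.81 and -0.64 at 4 h and between -0.39 and -0.29 at 8 h, and they were chosen by this likeness, so no test is given. SERPINB9 and ZBTB20 had mean levels of 1.58 and 2.06 CPM, where counting error is large.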

How the data were processed

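The authors deposited estimated counts per gene without normalisation, made with Salmon 1.1.0 on GRCh38 per the submitters' processing notes, which also name R 3.6.1 and DESeq2. No source used here gives the transcript annotation, the strand setting or the DESeq2 version. The 60184 rows include 5 plasmid rows (left out of library sizes and tests), and 41692 gene rows matched a symbol. The members and gene lists were chosen with earlier results of these data known.

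Counts were rounded, filtered with filterByExpr (minimum count 10, minimum total 15), scaled by TMM and fitted over all 6 libraries without covariates with edgeR 4.0.16 (quasi-likelihood test, legacy=TRUE) in R 4.3.3, with 3 residual and 5.43 prior degrees of freedom. The SE is the log2 fold change divided by the square root of F. P-values were adjusted by Benjamini-Hochberg over all 17449 tested features, with a threshold of 0.05. The common biological coefficient of variation was 6.34%. CPM use TMM-scaled library sizes. All 6 libraries were kept as separate samples, since replicate counts had a chi-square of 3.44 to 4 per degree of freedom. The script was tested on simulated counts with changes set in known genes. It recovered 16% to 18% of 1.25-fold changes, 46% to 53.1% of 1.5-fold changes and 67.3% to 78% of 2-fold changes. Of the genes called there at the threshold of 0.05, 8.73% to 11.6% had no set change. A gene without a call may therefore still have changed by a small amount. Besides the 10 members and HSF1, at most 4 called genes of smallest p were named per list and comparison, and the 5 genes nearest in pattern to the pair (log2 CPM with a pseudocount of 2); genes named outside this rule are marked in the text. Alternatives were other scalings (RLE, upper quartile, totals, cyclic loess), DESeq2 1.42.0, limma-voom 3.58.1, other filters, a replicate block, plasmid rows in library sizes, summed related rows, the 4 compared libraries alone and each library left out. Gene positions are from GENCODE 29.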

Additional observations from a re-analysis of the deposited data

Results flagged for a closer look

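The changes at 4 h and at 8 h, both taken against the caged libraries, differed by test for 3 genes. For HSPA4 the change at 8 h exceeded that at 4 h by 0.52 on the log2 scale (edgeR adjusted p 0.0271), with both 8 h libraries above both 4 h libraries. For HSPA4L it exceeded it by 0.52 (0.0371), again with both 8 h libraries higher. For HSPB1 the difference was -0.41 (0.0354), with both 8 h libraries lower.

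The plasmid rows took at least 14.8% of each library after light and at most 11.8% of each caged library. They were not tested as features, and they entered the library sizes only in the setting run for that purpose. That setting called 1012 features higher and 661 lower at 4 h, against 1074 and 622 as reported. At 8 h it called 2527 higher and 2366 lower, against 2602 and 2305. The part of the plasmid rows in the changes of the heat shock genes was not tested otherwise.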

How the results depend on the processing

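Of 1038 recomputed log2 fold changes of single genes and of the HSPA1 sum, 853 kept their direction and side of the threshold, 139 lost a call, 20 gained one and 26 changed sign. HSPA1B and the HSPA1 sum kept their 4 h and 8 h calls, and HSPA4 and HSPB1 their 8 h calls, in every setting run. The causes of the following changes were not tested.

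Signs changed as follows, as log2 fold changes. With library totals, HSPA4 at 4 h was -0.014, and from 4 h to 8 h HSP90AB1 was -0.027 and HSPD1 -0.0072. With cyclic loess, HSPA4 at 4 h was -0.080, HSPA8 at 8 h -0.19, and from 4 h to 8 h HSPA1A was 0.0027, HSP90AB1 -0.11 and HSPD1 -0.059; at 8 h BAG6 was -0.011 and CDC37 -0.0040. With single libraries left out, the values ran from -0.091 to 0.17 for HSPA4 and from -0.062 to 0.018 for HSPA8 at 4 h. At 8 h they ran from -0.45 to 0.069 for HSP90AA1, -0.14 to 0.015 for HSPD1 and -0.063 to 0.0082 for HSP90AB1. From 4 h to 8 h they ran from -0.14 to 0.0048 for HSPA1A, -0.0057 to 0.066 for HSP90AB1, -0.031 to 0.13 for HSPD1 and -0.085 to 0.43 for HSP90AA1. HSPB8 ran from -0.11 to 0.28 at 4 h and from -0.040 to 0.29 at 8 h. Of the values that changed sign, only that of HSPA8 with cyclic loess passed the test.

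Counts of members called: at 8 h, 1 was higher with upper-quartile factors, library totals, cyclic loess, no filter and the 4 compared libraries alone, and 5 (totals) or 7 (loess) were lower. From 4 h to 8 h, 3 were higher with DESeq2, 2 with the 1 CPM filter and with the 4 libraries alone, and 0 higher and 0 lower without the filter. Counts of list genes called higher: at 4 h 3 with upper-quartile factors, 2 with totals, 1 with loess and 0 without the filter; at 8 h 5 with totals, 7 with loess and 7 without the filter; from 4 h to 8 h 8 with DESeq2 and 0 without the filter. List genes called lower were 2 at 4 h with loess, and at 8 h 8 with totals, 7 with loess and 1 with the 4 libraries alone. Without the filter 711 features passed at 4 h and 53 from 4 h to 8 h, against 1696 and 570. The HSPA1 sum passed from 4 h to 8 h with DESeq2 (0.35) and with the 4 libraries alone (0.34). Adding AL671762.1 to the sum, chosen after seeing the data, changed no call.

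With single libraries left out, members called ranged from 1 to 4 lower at 4 h, 1 to 2 higher and 2 to 3 lower at 8 h, and 0 to 2 higher and 0 to 1 lower from 4 h to 8 h. List genes ranged from 0 to 4 higher and 0 to 1 lower at 4 h, 7 to 12 higher and 1 to 2 lower at 8 h, and 0 to 1 higher from 4 h to 8 h. All features called ranged from 226 to 1615, 2275 to 4315 and 6 to 274 in the 3 comparisons, and the sum from 4 h to 8 h from 0.29 to 0.39. A group left with 1 library is assumed to vary like the others.

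No pairing by replicate number was seen over all tested features: deviations of same-numbered libraries correlated at 0.00081, 0.047 and -0.05. This measure is taken over all features together, so it cannot exclude pairing for single genes. With the replicate number as a block, 1039 features passed at 4 h and 193 from 4 h to 8 h. List genes called were 2 higher at 4 h, 1 lower at 8 h and 0 higher from 4 h to 8 h, and members from 4 h to 8 h were 2 higher and 0 lower.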
